A study of Homo sapiens with 16 samples.

Results

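The Golgi glycosyltransferases described here are 43 genes of 9 families whose enzymes add sugars to proteins and lipids on their way through the secretory pathway. They were chosen by symbol and by level, with earlier results of these data known. The table held 73 symbols made of the stems GALNT, GCNT, B3GNT, B4GALT, MGAT, FUT, ST3GAL, ST6GAL or ST6GALNAC and a number, and the 43 with a TPM of 1 or more in 2 or more of the 16 libraries were kept, out of 60642 genes in all. TPM is a read estimate divided by transcript length and scaled to a fixed library total. Because 2 libraries were enough, a gene could be selected on a group where it was high, so the number of members that differed between groups is given as a description. The members were 9 of 18 GALNT, 2 of 5 GCNT, 4 of 9 B3GNT, 7 of 7 B4GALT, 5 of 9 MGAT, 5 of 11 FUT, 5 of 6 ST3GAL, 1 of 2 ST6GAL and 5 of 6 ST6GALNAC genes. RefSeq lists FUT10 and FUT11 as POFUT3 and POFUT4, protein O-fucosyltransferases, and B3GNT10 as B3GALT9. RNA levels cannot show in which compartment an enzyme works. The Golgi label is that of the families chosen by symbol, and it was not checked for each member, FUT10 and FUT11 included.

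RNA was sequenced from LNCaP cells, an established human prostate cancer line that expresses the androgen receptor. All groups were grown for 72 h with 5% fetal bovine serum and then for 48 h with 5% charcoal-stripped serum, which is depleted of steroids, before 48 h of treatment. Cells received the androgen dihydrotestosterone (DHT, 10 nM) or its ethanol solvent (VEH), in each case with DMSO or with 10 µM of an androgen receptor antagonist: bicalutamide (BIC), enzalutamide (ENZ) or apalutamide (APA, called ARN in the sample titles). The 4 groups with androgen are named DHT, APA.DHT, BIC.DHT and ENZ.DHT and the 4 without it VEH, APA.VEH, BIC.VEH and ENZ.VEH, each with 2 biological replicates. All groups come from a single cell line, so the spread between replicates is that of cultures, not of patients.

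O-glycans of the mucin type begin when a GALNT enzyme places GalNAc on serine or threonine. The GCNT and B3GNT enzymes then branch and lengthen the chain, B4GALT enzymes add galactose, FUT enzymes add fucose, and ST3GAL, ST6GAL and ST6GALNAC enzymes end it with sialic acid. MGAT enzymes open the branches of N-glycans on asparagine. ST6GALNAC1 is best known for making sialyl-Tn, a truncated O-glycan studied in prostate and other carcinomas, and ST3GAL5 makes the ganglioside GM3 from lactosylceramide.

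Among the GALNT genes, GALNT7 and GALNT10 differed in opposite directions with DHT (values below), and the 250 bases before their annotated starts are shown because they are the same kind of region in these 2 members. Both are from RefSeq GRCh38.p14, plus strand, at chr4:173168561-173168810 and chr5:154190483-154190732, with the GC box GGGCGG or CCGCCC in capitals.
GALNT7: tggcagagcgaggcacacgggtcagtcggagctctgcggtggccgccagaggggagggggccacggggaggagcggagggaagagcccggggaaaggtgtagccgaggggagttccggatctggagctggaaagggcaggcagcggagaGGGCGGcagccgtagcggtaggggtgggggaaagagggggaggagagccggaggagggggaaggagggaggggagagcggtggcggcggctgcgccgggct
GALNT10: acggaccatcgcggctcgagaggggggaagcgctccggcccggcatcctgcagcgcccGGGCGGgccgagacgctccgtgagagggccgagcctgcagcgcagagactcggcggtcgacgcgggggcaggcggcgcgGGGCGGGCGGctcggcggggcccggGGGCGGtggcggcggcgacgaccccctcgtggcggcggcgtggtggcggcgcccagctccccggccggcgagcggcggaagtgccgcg
The GALNT7 window held 1 GC box at 72.4% G and C, and the GALNT10 window held 4, of which 2 overlap, at 82.4%. Windows of this length were found for 30 members, 61 windows in all counting alternative starts, and 37 of them (60.7%) held a GC box on either strand, against 42.6% of 35116 windows over all genes. The letters AGAACA or TGTTCT, a single arm of the palindromic androgen response element, were in 7 member windows (11.5%) and in 12.4% of all windows, and in neither window above. The members had passed a filter on level and the windows over all genes had not, and alternative starts of the same gene can overlap. The shares are therefore not like for like, and their difference was not tested. These are matches of letters in short windows and do not locate a binding site.

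Cells responded to DHT: KLK3, which encodes prostate-specific antigen, had a log2 fold change of 6.42 ± 0.64 (SE, n = 2 per group) in DHT against VEH, TMPRSS2 had 3.15 ± 0.32 and FKBP5 had 2.68 ± 0.24. Luminal markers summed to between 2392 and 7841 TPM per library, and the basal, immune and endothelial lists to at most 1.75, 12.1 and 1.9 TPM. KRT5, TP63, PTPRC, PECAM1, CDH5, COL1A2 and DCN did not exceed 0.16 TPM, CD3E was listed at 0 in all 16 libraries, and the stromal sum of 12.3 to 34.8 TPM was mostly COL1A1. That sum was lower with DHT (34.8 and 30.0 TPM in VEH, against 12.3 and 17.2 TPM in DHT), and the basal sum, nearly all KRT14, was higher (0.11 and 0.06, against 1.68 and 1.75 TPM). The summed TPM of MKI67, TOP2A and MCM2, genes of dividing cells, was higher in replicate 2 than in replicate 1 in all 8 groups (23.5 and 52.5 in VEH, 59.2 and 114 in DHT, 12.8 and 51.9 in ENZ.DHT, 16.7 and 52.6 in APA.DHT). The part of these markers in the results below was not tested. ENZ.DHT replicate 1 and APA.DHT replicate 1 stood apart in their summed member TPM (941 and 945), the lowest of the range up to 1386. They held the lowest value of 13 and 8 members, while DHT replicates 1 and 2 held that of 5 and 10. The share of TPM from mitochondrial genes was 19.4% and 19.2% in these 2 libraries, against 16.9% and 16.2% in replicate 2 of the same groups, and it was highest in DHT replicate 1 (22.3%, against 14.7% in DHT replicate 2 and 16.6% and 15.9% in VEH). With mitochondrial genes left out before scaling, 7, 2, 6 and 8 members were called in DHT against VEH and in the bicalutamide, enzalutamide and apalutamide comparisons with DHT, against 8, 2, 6 and 8 with them. Counts called against DHT in the fit without the block are also given without ENZ.DHT replicate 1 or APA.DHT replicate 1.

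DHT against VEH asks which of these genes differ after androgen is added. With DHT, ST6GALNAC1 and GALNT7 rose, and ST3GAL5, GALNT10, GALNT3, ST6GALNAC5, ST3GAL2 and GALNT18 fell. These 8 of 43 members (18.6%) were called at a limma adjusted p below 0.05, beside 10.3% of the 16636 genes tested; the 2 that rose stand beside 3.63% called higher and the 6 that fell beside 6.64% called lower. Fold changes are on the scale log2(TPM + 1), which understates changes of low genes. The median log2 fold change was -0.19 over the members and -0.10 over all genes. A negative value was held by 30 of 43 members and a positive one by 13, where 39.5% of all genes were positive. With the genes scaled to the median ratio instead, which brings the median of all genes to 0, 8 members were called, 3 higher and 5 lower. The replicate numbers pair the cultures, and with the replicate as a block 16 members were called, 3 higher and 13 lower, beside 27.4% of genes called, 10.6% higher and 16.8% lower. The count fell to 2 without VEH replicate 1, 3 without DHT replicate 2 and 5 without either of the other 2 libraries, and to 1 (ST6GALNAC1) when only these 4 libraries were fitted. In bulk RNA, fewer cells expressing a gene and less RNA per cell cannot be told apart.

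**Figure D1:**
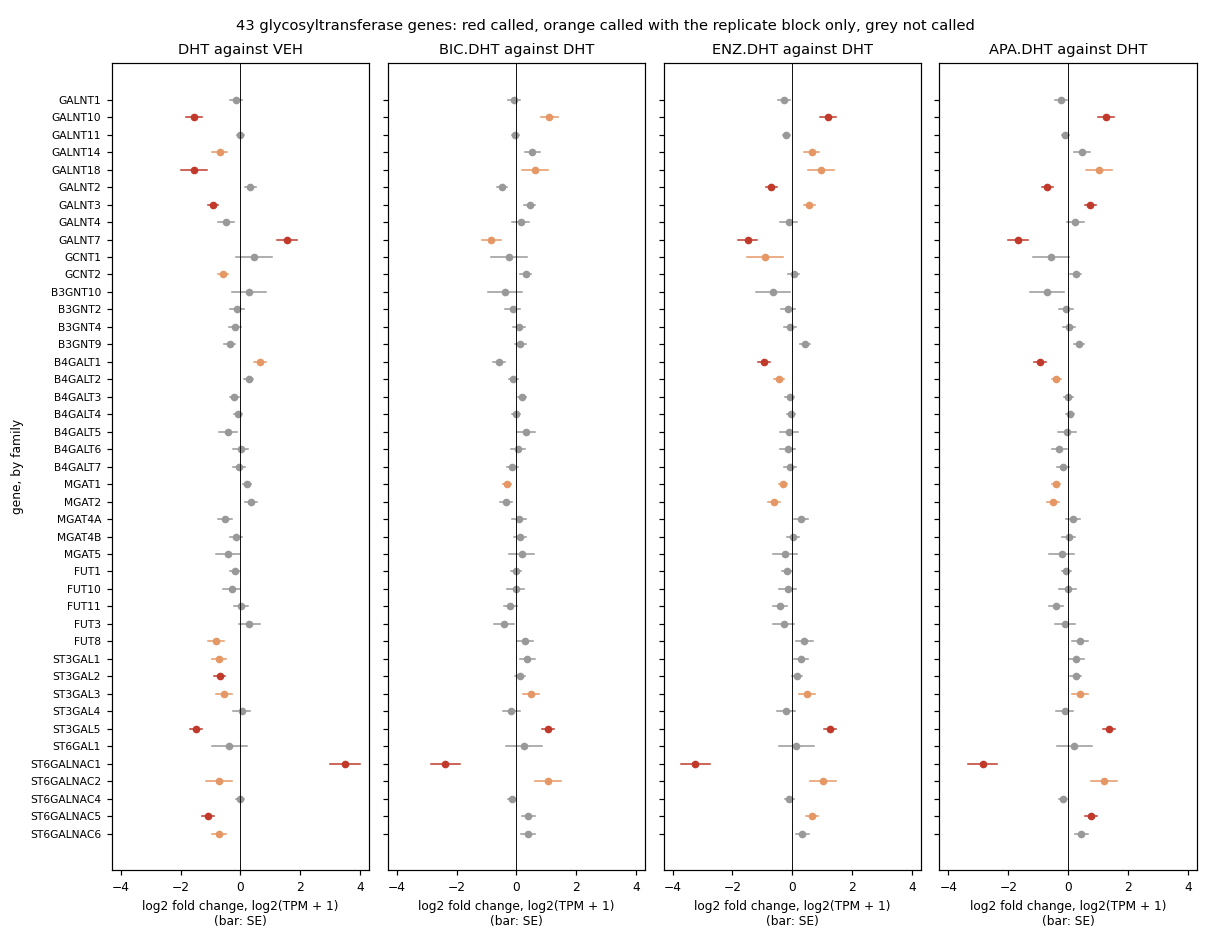
Log2 fold change on the log2(TPM + 1) scale (x axis; bars are SE from limma, n = 2 per group) of each of the 43 members (y axis, ordered by family) in 4 comparisons. ST6GALNAC1 lies farthest from 0 in each, at 3.49 in DHT against VEH and at -2.37, -3.24 and -2.85 in the antagonist comparisons.

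GALNT enzymes start the O-glycan, and 4 of the 9 members were called with DHT. GALNT10 (chromosome 5, 154190733 to 154420984 in GRCh38.p14) was the highest of them by mean in VEH, at 83.1 and 67.7 TPM, and was at 29.0 and 21.6 TPM in DHT, where the means of GALNT1, GALNT2, GALNT3, GALNT7 and GALNT11 were above it. It fell by 1.55 ± 0.28 on the log2 scale (SE; limma adjusted p = 0.0052). GALNT3 (chromosome 2, 165747588 to 165794692), which glycosylates FGF23 among other proteins, was at 56.7 and 58.4 TPM in VEH, against 32.5 and 27.7 TPM in DHT. The groups of both genes were separate. GALNT3 had a log2 fold change of -0.92 ± 0.18 (limma adjusted p = 0.009). Both calls were lost without VEH replicate 1 or DHT replicate 2, and that of GALNT3 also without VEH replicate 2. With each of the 4 libraries left out in turn, the log2 fold change was -1.75 to -1.34 for GALNT10 and -1.03 to -0.81 for GALNT3. GALNT18 (chromosome 11, 11270877 to 11622005) had 41.1 and 25.6 TPM in VEH, against 13.3 and 7.94 TPM in DHT. Its replicates differed more than those of the other 2, and its log2 fold change of -1.56 ± 0.44 was only just called (limma adjusted p = 0.044). That call was lost when any of the 4 libraries was left out (adjusted p from 0.072 to 0.27) and with median-ratio scaling (adjusted p = 0.061), and it was kept with the block (adjusted p = 0.00017).

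GALNT7, which prefers peptides that already carry GalNAc, rose while those 3 fell. GALNT7 (chromosome 4, 173168811 to 173323967) had 8.44 and 10.4 TPM in VEH, against 21.6 and 40.0 TPM in DHT, so that the DHT replicates were separate from VEH but far from each other. Its log2 fold change was 1.55 ± 0.33 (limma adjusted p = 0.012), and without DHT replicate 2, the higher one, it was 1.12. The GALNT7 call was lost without that library and without VEH replicate 1. GALNT2 (chromosome 1, 230057789 to 230282122), a broadly acting initiating enzyme, was at 64.0 and 52.8 TPM in VEH, against 80.1 and 67.3 TPM in DHT, a log2 fold change of 0.33 that was not called. GALNT1 (37.1 to 65.6 TPM over the 16 libraries) and GALNT11 (38.9 to 52.8 TPM) were abundant and not called in any of the 4 comparisons shown in the plot of fold changes. GALNT14, at 2.03 and 1.14 TPM in VEH, against 0.83 and 0.36 TPM in DHT, was called lower only with the block (adjusted p = 0.036). GALNT4 (1.82 to 5.13 TPM) lies inside POC1B in the RefSeq annotation, so its reads may be shared with that gene.

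The composition of the GALNT family was read as the share of its summed TPM held by each gene in a library. GALNT10 made up 22.6% and 20.6% of the sum in VEH and 10.4% and 7.95% in DHT, and GALNT2 made up 17.4% and 16.1% in VEH and 28.7% and 24.8% in DHT. GALNT7 went from 2.29% and 3.15% to 7.71% and 14.7%. The family sum itself was 368 and 329 TPM in VEH, against 280 and 271 TPM in DHT. No test was made on shares, which move together because they add to the whole.

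**Figure D2:**
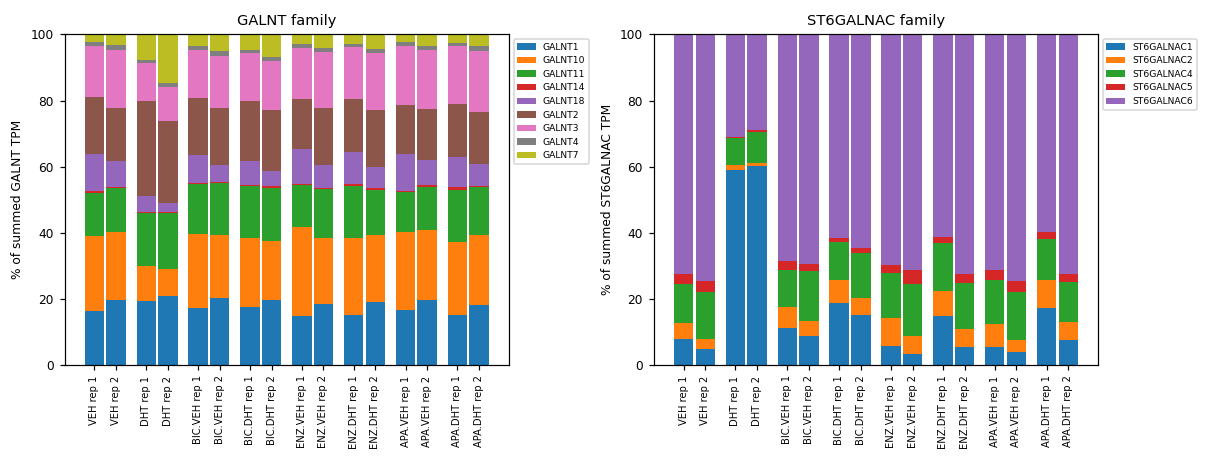
Share of the summed TPM of the GALNT family (left) and the ST6GALNAC family (right) held by each gene (y axis, percent) in each of the 16 libraries (x axis). ST6GALNAC1 held 59.0% and 60.1% of its family's TPM in the DHT replicates and between 3.13% and 18.5% in the other 14 libraries.

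The sialyltransferases that cap GalNAc, the ST6GALNAC genes, held the largest change. ST6GALNAC1 (chromosome 17, 76617407 to 76643757) was at 5.03 and 2.22 TPM in VEH and at 52.5 and 45.1 TPM in DHT, a ratio of means of 13.5. Its log2 fold change was 3.49 ± 0.49 (limma adjusted p = 0.0013), and it was called under every alternative run, including each library left out. Its neighbour on chromosome 17, ST6GALNAC2 (76565377 to 76585860), which acts on similar O-glycans, went the other way at low level, from 3.25 and 1.46 TPM to 1.25 and 0.72 TPM, and was called lower only with the block (adjusted p = 0.0089, against 0.33 without it). ST6GALNAC5 (chromosome 1, 76867480 to 77067546), which makes the ganglioside GD1-alpha, had 1.92 and 1.6 TPM in VEH, against 0.16 and 0.47 TPM in DHT. It fell by 1.08 ± 0.20 on the log2 scale (limma adjusted p = 0.0072), at a level where few reads stand behind a value, and the call was lost without VEH replicate 1 (adjusted p = 0.069) or DHT replicate 1 (0.064). ST6GALNAC6 had the family's highest mean in every group but DHT, where ST6GALNAC1 was above it. It was at 47.4 and 35.3 TPM in VEH, against 27.7 and 21.7 TPM in DHT, and was called lower only with the block (adjusted p = 0.014). ST6GALNAC4 stayed between 6.11 and 8.73 TPM in all libraries and was not called. In RefSeq ST6GALNAC4 and ST6GALNAC6 both overlap a readthrough transcript, ST6GALNAC4-ST6GALNAC6-AK1, to which reads may also have been assigned. The family sum was 65.4 and 47.4 TPM in VEH, against 88.9 and 75.1 TPM in DHT.

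ST3GAL enzymes add sialic acid to galactose, and 2 of the 5 members fell. ST3GAL5 (chromosome 2, 85837120 to 85889034) had 9.65 and 10.4 TPM in VEH, against 2.49 and 3.51 TPM in DHT. Both DHT values were below both VEH values by a wide margin, with a log2 fold change of -1.47 ± 0.20 (limma adjusted p = 0.0011), and the call was kept without each library in turn. ST3GAL2 (chromosome 16, 70375977 to 70439100), which sialylates gangliosides and O-glycans, was at 4.61 and 4.7 TPM in VEH, against 2.51 and 2.45 TPM in DHT. Its replicates were close, and it fell by 0.70 ± 0.17 on the log2 scale (limma adjusted p = 0.026), a call lost when any of the 4 libraries was left out (adjusted p from 0.098 to 0.13). ST3GAL1, which caps core 1 O-glycans and was the most abundant sialyltransferase, was at 169 and 136 TPM in VEH, against 103 and 81.3 TPM in DHT. It was called lower only with the block (adjusted p = 0.011, against 0.089 without it), as was ST3GAL3 (23.8 and 17.9 TPM in VEH, 15.5 and 12.4 TPM in DHT, adjusted p = 0.0053 with the block). ST3GAL4 ranged from 21.7 to 38.7 TPM and was not called in any of the 4 comparisons. The ST3GAL sum was 242 and 193 TPM in VEH, against 157 and 126 TPM in DHT. ST6GAL1, the single ST6GAL member, adds sialic acid to N-glycans and was at 3.58 and 6.81 TPM in VEH, against 2.54 and 5.03 TPM in DHT, so that its groups overlapped.

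**Figure D3:**
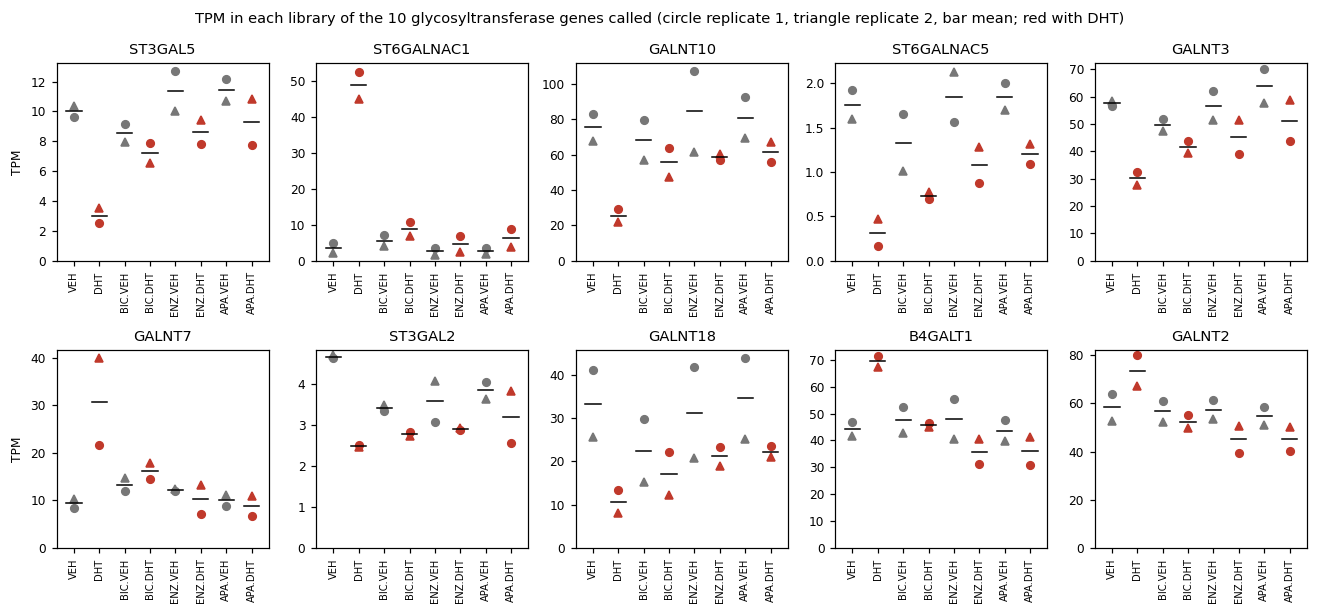
TPM (y axis, linear from 0, a scale of its own for each gene) of the 10 members called in 1 or more of the 4 comparisons, in both replicates of the 8 groups (x axis; bars are means of 2). In ST6GALNAC1 the DHT replicates at 52.5 and 45.1 TPM lie above all other libraries, the next highest being 10.8 TPM in BIC.DHT, and in ST3GAL5 and GALNT10 the DHT replicates are the lowest of the 16.

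The families that extend, branch, galactosylate and fucosylate held no member called with DHT in the fit without the block. Of the 7 B4GALT genes, B4GALT1 (chromosome 9, 33104077 to 33185089), a main galactosyltransferase of N-glycans, was at 46.9 and 41.7 TPM in VEH, against 71.6 and 67.4 TPM in DHT. Its groups were separate, but its log2 fold change of 0.64 ± 0.20 missed the threshold (limma adjusted p = 0.066). It was past it with the block (adjusted p = 0.029) and with median-ratio scaling (0.76, adjusted p = 0.014). B4GALT3, the family's highest by mean in every group but DHT, where B4GALT1 was above it, ranged from 47.2 to 68.8 TPM. B4GALT7, which acts in the linker of glycosaminoglycans and not in O-glycans of the mucin type, ranged from 19.1 to 29.7 TPM. The other 4 members, B4GALT2 (34.8 to 59.0 TPM over the 16 libraries), B4GALT4 (17.5 to 22.5), B4GALT5 (12.8 to 28.1) and B4GALT6 (1.74 to 4.4), were not called with DHT by either fit. Among the GCNT genes, GCNT2, the I-branching enzyme, was at 9.63 and 8.66 TPM in VEH, against 5.79 and 5.72 TPM in DHT and was called lower only with the block (adjusted p = 0.027). GCNT1, the core 2 enzyme, was at 8.12 and 13.97 TPM in VEH, against 9.26 and 23.8 TPM in DHT, with replicates farther apart than the groups. FUT8, which adds the core fucose of N-glycans, was at 11.02 and 14.4 TPM in VEH, against 6.48 and 6.83 TPM in DHT, called lower only with the block (adjusted p = 0.0034, against 0.08 without it). FUT1, which makes the H antigen, stayed between 1.79 and 3.18 TPM, FUT10 between 2.98 and 6.38 TPM and FUT11 between 5.64 and 11.7 TPM, and none of these 3 was called by either fit.

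No MGAT, B3GNT or ST6GAL member was called in DHT against VEH with or without the block. MGAT4B was the most abundant of all 43 members by mean, between 159.96 and 249.63 TPM, and it overlaps SQSTM1 in the annotation. MGAT1, which opens the way to complex N-glycans, was at 45.7 and 44.5 TPM in VEH, against 55.6 and 50.9 TPM in DHT, and MGAT2, which acts after it, at 20.95 and 21.05 TPM and at 23.6 and 31.0 TPM. MGAT5, the branching enzyme studied in metastasis, ranged from 7.36 to 21.5 TPM and MGAT4A from 1.59 to 3.26 TPM. The members named B3GNT, a family that lengthens chains with GlcNAc, were low. B3GNT10 had the highest mean of them (4.1 to 19.3 TPM). RefSeq lists it as B3GALT9, so its place in this family rests on its symbol. B3GNT2 had 3.4 to 6.26 TPM and B3GNT4 had 3.2 to 6.11 TPM.

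Members close to the expression minimum bear little weight. Just inside it were FUT3 (1 TPM or more in 4 libraries, 0.23 to 1.84 TPM), B3GNT9 (0.68 to 1.58 TPM), ST6GALNAC5 and GALNT14. FUT3 shares much of its sequence with FUT5 and FUT6, which were below the minimum at highest values of 0.04 and 0.17 TPM. Just outside were GALNT12 with a highest value of 1.55 TPM, GALNT9 with 1.11 TPM, each reaching 1 in 1 library, and GCNT3 with 0.94 TPM. Of the 30 symbols left out, B3GNT3 and GALNT5 were listed at 0 in all 16 libraries.

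The antagonists were given together with DHT to ask whether the levels differ from those of DHT alone. All 3 comparisons use the same 2 DHT libraries, which also enter DHT against VEH, so an error in either DHT library moves all 4 sets of values. Without the block 6 members were called with enzalutamide, 8 with apalutamide and 2 with bicalutamide, beside 9.65%, 8.36% and 3.13% of all genes. These counts do not rank the drugs. KLK3 was at 845 and 445 TPM in BIC.DHT, against 4102 and 2422 TPM in DHT, and was not called (limma adjusted p = 0.081). ST6GALNAC1 was called lower with each antagonist. ST3GAL5 was called higher with each.

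With bicalutamide, ST6GALNAC1 was at 10.8 and 6.8 TPM against 52.5 and 45.1 TPM in DHT. Its log2 fold change was -2.37 ± 0.49 (limma adjusted p = 0.027), and the call was lost without any of the 4 libraries (adjusted p from 0.09 to 0.19). ST3GAL5 was at 7.91 and 6.51 TPM, a log2 fold change of 1.04 ± 0.20 (limma adjusted p = 0.019). The call for ST3GAL5 was kept without DHT replicate 2 and lost without each of the other 3 libraries (adjusted p from 0.08 to 0.18). These 2 of 43 members stand beside 3.13% of all genes called, 1.45% higher and 1.68% lower. With the block 8 members were called, 5 higher and 3 lower, beside 13.3% of genes, 6.5% higher and 6.82% lower. GALNT10, at 63.5 and 47.6 TPM in BIC.DHT, missed the threshold with a log2 fold change of 1.11 ± 0.28 (limma adjusted p = 0.058) but not with the block (adjusted p = 0.0057). GALNT7, at 14.4 and 18.0 TPM, was likewise called lower only with the block (adjusted p = 0.016, against 0.24).

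With enzalutamide, ST6GALNAC1, GALNT7, B4GALT1 and GALNT2 fell and GALNT10 and ST3GAL5 rose. The count of 6 (14%) stands beside 9.65% of genes called, 4.74% higher and 4.91% lower. ST6GALNAC1 was at 6.86 and 2.53 TPM in ENZ.DHT, a log2 fold change of -3.24 ± 0.49 (limma adjusted p = 0.0024). ST3GAL5 was at 7.81 and 9.42 TPM, a log2 fold change of 1.27 ± 0.20 (limma adjusted p = 0.0031). These 2 calls were kept without each library in turn. GALNT7 was at 7.21 and 13.3 TPM (log2 fold change -1.49 ± 0.33, limma adjusted p = 0.017) and GALNT10 at 56.8 and 60.1 TPM (1.19 ± 0.28, adjusted p = 0.022). The GALNT10 call was lost without any of the 4 libraries, and that of GALNT7 without ENZ.DHT replicate 1 or DHT replicate 2. Over these fits the log2 fold change was 0.99 to 1.40 for GALNT10 and -1.92 to -1.06 for GALNT7. B4GALT1 was at 31.2 and 40.5 TPM, below both DHT and VEH replicates, with a log2 fold change of -0.95 ± 0.20 against DHT (limma adjusted p = 0.014). GALNT2 was at 39.5 and 50.7 TPM, a log2 fold change of -0.70 ± 0.18 (limma adjusted p = 0.03). Without ENZ.DHT replicate 1, which held the lower value of both genes, B4GALT1 had -0.77 (adjusted p = 0.11) and GALNT2 had -0.53 (adjusted p = 0.22), and the count of members called was 2, as it was without DHT replicate 2. When only the ENZ.DHT and DHT libraries were fitted, limma called 0 members and 11 had an unadjusted p below 0.05. With the block 16 members were called, 8 in each direction, beside 29.2% of genes, 13.3% higher and 15.9% lower.

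With apalutamide, ST6GALNAC1, GALNT7, B4GALT1 and GALNT2 fell and GALNT10, ST3GAL5, GALNT3 and ST6GALNAC5 rose. The count of 8 (18.6%) stands beside 8.36% of genes called, 4.25% higher and 4.11% lower. ST6GALNAC1 was at 8.74 and 3.85 TPM in APA.DHT, a log2 fold change of -2.85 ± 0.49 (limma adjusted p = 0.0052), and ST3GAL5 at 7.76 and 10.8 TPM, a log2 fold change of 1.36 ± 0.20 (limma adjusted p = 0.0022). As with enzalutamide, these 2 calls were kept without each library in turn. GALNT7 was at 6.64 and 10.9 TPM (-1.68 ± 0.33, limma adjusted p = 0.0098), B4GALT1 at 30.8 and 41.3 TPM (-0.94 ± 0.20, adjusted p = 0.014) and GALNT2 at 40.3 and 50.4 TPM (-0.69 ± 0.18, adjusted p = 0.034). GALNT10 was at 55.9 and 67.4 TPM (1.26 ± 0.28, limma adjusted p = 0.018), GALNT3 at 43.6 and 58.6 TPM (0.73 ± 0.18, adjusted p = 0.031) and ST6GALNAC5 at 1.09 and 1.32 TPM (0.75 ± 0.20, adjusted p = 0.045). The GALNT3 call was lost without APA.DHT replicate 2 or either DHT library, and that of ST6GALNAC5 without any of the 4 libraries. Both were also lost with no filter. With each library left out, the log2 fold change was 0.53 to 0.94 for GALNT3 and 0.58 to 0.92 for ST6GALNAC5. Without APA.DHT replicate 1 the count was 3, and B4GALT1 (adjusted p = 0.1), GALNT2 (0.19), GALNT7 (0.076), GALNT10 (0.05, not below the threshold) and ST6GALNAC5 (0.11) were no longer called. The count was 2 without DHT replicate 2 and 4 without DHT replicate 1. When only these 4 libraries were fitted, limma called 0 members and 10 had an unadjusted p below 0.05. With the block 14 members were called, 7 in each direction, beside 27.3% of genes, 13.2% higher and 14.1% lower.

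The block also called members that the fit without it did not. ST6GALNAC2 was higher than in DHT with each antagonist, at 4.16 and 2.22 TPM in BIC.DHT, 3.52 and 2.51 TPM in ENZ.DHT and 4.43 and 2.71 TPM in APA.DHT, against 1.25 and 0.72 TPM in DHT. Its adjusted p with the block was 0.0026, 0.0013 and 0.00055 in that order. GALNT18 was also called higher with each, at 0.046, 0.003 and 0.0021. ST3GAL3 was higher and MGAT1 lower with each antagonist by the same fit. MGAT2 and B4GALT2 were lower with enzalutamide and apalutamide, and GCNT1 and GALNT14 were called with enzalutamide, lower and higher. With enzalutamide the block called 4 GALNT members higher, GALNT3 among them, and 2 ST6GALNAC members including ST6GALNAC2. GALNT3 was at 39.05 and 51.38 TPM in ENZ.DHT, against 32.46 and 27.72 TPM in DHT. In all, 21 of the 43 members (48.8%) were called with the block in 1 or more of the 4 comparisons, beside 39.3% of all genes tested. Of these, 11 (25.6%) were called only with it, beside 25.6% of all genes, so that this share was that of the background. The other 22 members were called by neither fit.

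Given without DHT, the antagonists ask for effects of their own. No member was called in BIC.VEH, ENZ.VEH or APA.VEH against VEH by limma, beside 0%, 0% and 0.00601% of genes. At an unadjusted limma p below 0.05 there were 0 members in each, beside 194, 139 and 151 of the 16636 genes. With the block no member was called either. That fit gave 4, 1 and 0 members an unadjusted limma p below 0.05, beside 539, 483 and 399 genes. The absence of calls does not show the absence of an effect. KLK3 was at 358 and 206 TPM in BIC.VEH, against 53.0 and 24.0 TPM in VEH, and was not called without the block. It was at 72.9 and 71.5 TPM in ENZ.VEH and at 30.4 and 20.4 TPM in APA.VEH. ST6GALNAC1 was at 7.15 and 3.99 TPM in BIC.VEH, 3.52 and 1.65 TPM in ENZ.VEH and 3.45 and 1.87 TPM in APA.VEH, against 5.03 and 2.22 TPM in VEH. Replicates differed more than groups here, with replicate 2 lower in all 8 groups. Within each replicate number BIC.VEH was above VEH, and ENZ.VEH and APA.VEH were below it. The fit without the block leaves this pairing out. Its 95% interval of the log2 difference from VEH ran from -0.54 to 1.61 for bicalutamide, a range that includes 1. For ST3GAL5 the intervals were narrower, -0.65 to 0.23 for bicalutamide, -0.28 to 0.60 for enzalutamide and -0.27 to 0.62 for apalutamide.

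The response to DHT that was left under an antagonist was measured within each drug. No member was called in BIC.DHT against BIC.VEH, ENZ.DHT against ENZ.VEH or APA.DHT against APA.VEH by limma, beside 0%, 0.00601% and 0.00601% of genes. At an unadjusted limma p below 0.05 there were 0, 3 and 1 members, beside 234, 541 and 408 of the 16636 genes. With the block no member was called either. That fit gave 1, 11 and 6 members an unadjusted limma p below 0.05, beside 768, 1588 and 1158 genes. ST6GALNAC1 had log2 fold changes of 0.59, 0.61 and 0.94 (SE 0.49 each), none called, with a 95% interval of -0.13 to 2.02 under apalutamide. The members' median log2 fold change was -0.12 under bicalutamide, -0.28 under enzalutamide and -0.22 under apalutamide, beside -0.06, -0.13 and -0.07 over all genes. Of the 43 members 41 had a negative value in ENZ.DHT against ENZ.VEH, where 28.2% of all genes were positive, and that comparison includes ENZ.DHT replicate 1, which held 13 of the members' lowest values, and ENZ.VEH replicate 1, which held 12 of their highest. Without ENZ.DHT replicate 1 the count was 29, with a median of -0.16 over the members and -0.06 over all genes, of which 38.0% were positive. Without ENZ.VEH replicate 1 it was 32, where 35.4% of all genes were positive.

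Whether DHT acted differently with an antagonist than without was tested as an interaction. No member was called without the block by limma for bicalutamide, enzalutamide or apalutamide, beside 0.986%, 1.63% and 1.42% of genes. At an unadjusted limma p below 0.05 there were 7, 8 and 8 of the 43 members, beside 1716, 2163 and 2184 of the 16636 genes. With the block 5, 7 and 6 members were called, beside 6.39%, 9.91% and 10.1% of genes. ST6GALNAC1, GALNT7, GALNT10, GALNT18 and ST3GAL5 were called with each drug. For ST6GALNAC1 the interaction was -2.90 ± 0.69, -2.89 ± 0.69 and -2.55 ± 0.69 on the log2 scale, with limma adjusted p of 0.086, 0.071 and 0.12 without the block and 0.00018, 0.00015 and 0.0004 with it. For ST3GAL5 it was 1.25, 1.11 and 1.19 (SE 0.28 each), with adjusted p of 0.071, 0.088 and 0.076 without the block and 0.021, 0.027 and 0.021 with it. B4GALT1 and MGAT1 were further called with enzalutamide and ST6GALNAC2 with apalutamide.

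The 3 antagonists were compared with each other at the same dose and time. Enzalutamide and apalutamide share a diarylthiohydantoin core, which bicalutamide lacks. No member was called in any of the 6 pairs by limma: with DHT 0.00601%, 0% and 0.00601% of genes were called for ENZ against BIC, APA against BIC and APA against ENZ, and without DHT 0%, 0.012% and 0.00601% in the same order. With DHT 1, 1 and 0 members had an unadjusted limma p below 0.05, beside 565, 483 and 102 of the 16636 genes. Without DHT these were 0, 0 and 1 members, beside 297, 262 and 272 genes. ST6GALNAC1 in ENZ.DHT differed from BIC.DHT by -0.87 on the log2 scale (95% interval -1.95 to 0.21), in APA.DHT from BIC.DHT by -0.48 (-1.56 to 0.59), and in APA.DHT from ENZ.DHT by 0.38 (-0.69 to 1.46). GALNT7 in APA.DHT differed from BIC.DHT by -0.84 (95% interval -1.56 to -0.13, unadjusted p = 0.025 and adjusted p = 1 by limma). For B4GALT1 the APA.DHT and ENZ.DHT groups differed by 0.00 (95% interval -0.43 to 0.44). These intervals allow differences as large as many of the changes above, so the drugs were not shown to act alike.

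Replicates 1 and 2 differed in a way that recurred across groups. In all 8 groups replicate 2 was higher for B3GNT10, FUT8, GALNT4, GALNT7, GCNT1, MGAT2, MGAT5 and ST6GAL1, and lower for B4GALT7, FUT3, GALNT18, MGAT1, ST3GAL3, ST3GAL4, ST6GALNAC1, ST6GALNAC2 and ST6GALNAC4. ST6GAL1 was 1.9 to 3.51 times as high in replicate 2, and GCNT1 1.47 to 3.24 times. ST6GALNAC2 in replicate 2 was 0.376 to 0.713 times its level in replicate 1, and ST6GALNAC1 0.369 to 0.86 times. The dividing-cell markers were also higher in replicate 2 in all 8 groups, and their part in these differences was not tested.

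**Figure D4:**
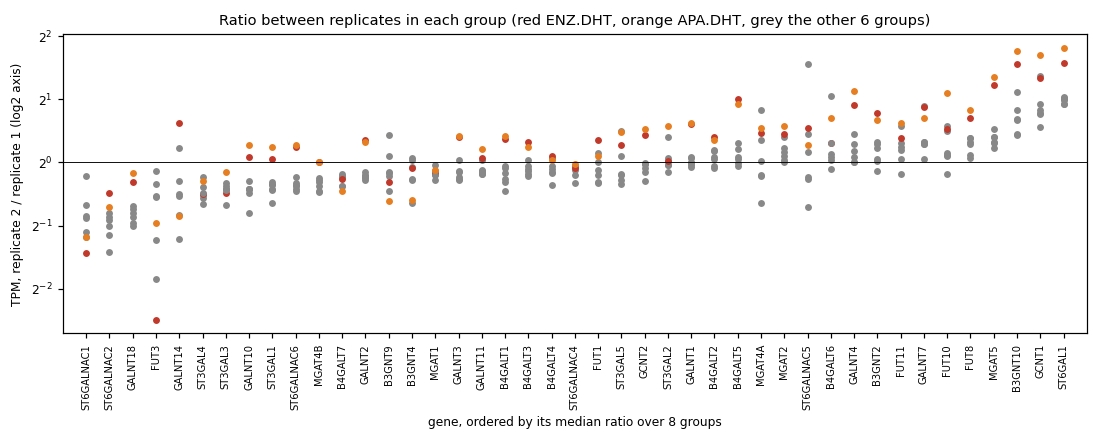
Ratio of TPM in replicate 2 to replicate 1 (y axis, log2 scale) in each of the 8 groups for the 43 members (x axis, ordered by median ratio). ST6GAL1 has a median ratio of 2.03 and ST6GALNAC1 of 0.505, and the ENZ.DHT and APA.DHT groups hold the highest ratios of several genes on the right.

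The enzymes draw on sugar nucleotides made in the cytosol and nucleus and carried into the Golgi, and genes of these steps were read from 6 pathway lists. The lists were chosen with earlier results of these data known, so their counts beside the background are a description. Of 27 tested genes of nucleotide sugar synthesis 8 rose with DHT and 0 fell, beside 3.63% of all genes called higher and 6.64% called lower, with a list median of 0.11 beside -0.10 over all genes. The count was 5 without VEH replicate 2 or either DHT library and 6 without VEH replicate 1. With median-ratio scaling 10 rose and 0 fell, and with the block 11 rose and 3 fell, beside 10.6% and 16.8% of genes. UAP1, which makes UDP-GlcNAc, went from 50.7 and 44.1 TPM in VEH to 209 and 222 TPM in DHT (log2 fold change 2.16 ± 0.12, limma adjusted p = 5e-06). PGM3, in the same pathway, went from 36.1 and 36.2 to 102 and 102 TPM (1.47 ± 0.22, adjusted p = 0.0019). GMPPB, which makes GDP-mannose, rose by less (0.70 ± 0.20). NANS and CMAS, named here after their values were seen because they make and activate sialic acid, were at 76.9 and 67.2 TPM and at 53.0 and 53.1 TPM in VEH, and at 150.4 and 133 TPM and 96.2 and 79.7 TPM in DHT. PMM2 and GMPPA also rose.

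Of 28 genes of N-glycan assembly and oligosaccharyl transfer 26 had a positive value with DHT, where 39.5% of all genes were positive. Of these 28 genes 5 were called higher and 0 lower, beside the same 3.63% and 6.64%. The count was 2 without any 1 of the 4 libraries, 11 with median-ratio scaling and 12, all higher, with the block. RPN1 (0.80 ± 0.15) and DPAGT1 (0.71 ± 0.13) had the largest changes, and ALG3 (0.50 ± 0.10) and DAD1 (0.45 ± 0.10) the smallest of those called, with OSTC between them. Of 13 trimming genes only MANEA, a Golgi endomannosidase, was called without the block, and 6 were called with it, 2 higher and 4 lower. MANEA fell from 202 and 148 TPM to 41.3 and 33.9 TPM (log2 fold change -2.18 ± 0.31, limma adjusted p = 0.0014), a call kept without each library in turn. Of 12 transporters SLC35A5 fell (-0.85 ± 0.21, limma adjusted p = 0.025), a call lost without any 1 of the 4 libraries. With median-ratio scaling, as with the block, 2 transporters rose and 1 fell. Of 16 other Golgi glycosyltransferases and sulfotransferases B3GALT6 rose (0.59 ± 0.11) and B3GALNT2 (-0.54 ± 0.15) and A4GALT (-0.73 ± 0.20) fell. That count of 3 was 0 to 2 with each library left out, 0 without VEH replicate 2 and 1 without VEH replicate 1 or DHT replicate 1, and with the block 1 rose and 4 fell. None of 24 Golgi structure genes was called by limma in DHT against VEH without the block, and 3 were called with it, 2 higher and 1 lower. Each count with the block in this paragraph stands beside 27.4% of all genes, 10.6% higher and 16.8% lower. The counts of transporters, other transferases and Golgi structure genes were near or below that share.

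**Figure D5:**
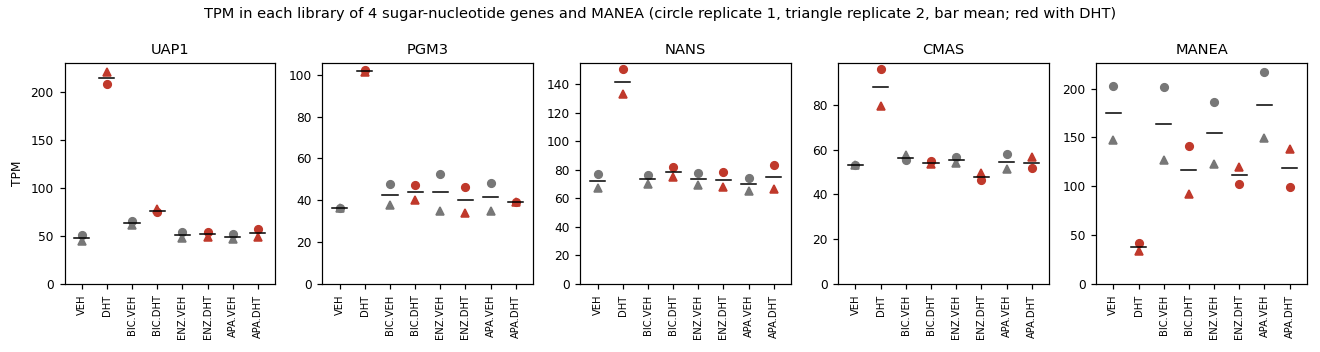
TPM (y axis, linear from 0, a scale of its own for each gene) of UAP1, PGM3, NANS, CMAS and MANEA in both replicates of the 8 groups (x axis; bars are means of 2). UAP1 reaches 209 and 222 TPM in DHT and lies between 44.1 and 77.6 TPM in the other 14 libraries, and MANEA is lowest in DHT.

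Against DHT alone, 6, 10 and 9 of the 27 nucleotide sugar genes fell with bicalutamide, enzalutamide and apalutamide and 0 rose, beside 1.68%, 4.91% and 4.11% of all genes called lower. With the block 8, 12 and 12 fell and 1, 5 and 3 rose, beside 6.82%, 15.9% and 14.1% of genes called lower and 6.5%, 13.3% and 13.2% called higher. The bicalutamide count of 6 was 2 without DHT replicate 2 and 1 without any other of its 4 libraries. The enzalutamide count was 6 without ENZ.DHT replicate 1, 5 without DHT replicate 1, 6 without DHT replicate 2 and 10 without ENZ.DHT replicate 2, where 1 of the 10 rose. The apalutamide count was 6 without either APA.DHT library, 4 without DHT replicate 1 and 5 without DHT replicate 2. UAP1, the UDP-GlcNAc enzyme, had log2 fold changes of -1.48, -2.04 and -2.00 (SE 0.12 for each drug).

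MANEA rose with each drug, by 1.58, 1.54 and 1.62 (SE 0.31 each). With bicalutamide its call was lost without any 1 of the 4 libraries (limma adjusted p from 0.052 to 0.2), and with enzalutamide and apalutamide it was lost only without DHT replicate 2 (0.094 and 0.082). Of the 28 N-glycan assembly genes 2, 8 and 8 fell and 0 rose, beside 1.68%, 4.91% and 4.11% of all genes called lower. With the block 11, 18 and 15 fell and 0 rose, beside 6.82%, 15.9% and 14.1% called lower. Those counts without the block depended on single libraries. For bicalutamide both calls were lost without any 1 of the 4 libraries. For enzalutamide it was 2 without ENZ.DHT replicate 1 or either DHT library and 11 without ENZ.DHT replicate 2. For apalutamide it was 2 without APA.DHT replicate 1 or DHT replicate 2, 3 without DHT replicate 1 and 11 without APA.DHT replicate 2. These comparisons share the DHT libraries with the one against VEH, so they are not separate evidence on those 2 libraries.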

How the data were processed

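RNA from LNCaP cells was sequenced as polyadenylated, stranded libraries with paired reads. The authors trimmed and checked reads with Trim Galore 0.6.5 and FastQC 0.11.9, aligned them to GRCh38 with STAR 2.7.2b and estimated gene levels with RSEM 1.3.3, per the study's methods and the submitters' processing notes, and deposited the values as TPM, 1 column per library. Whether counting used strand is not given in the sources used here, so 31 of 43 members that overlap another RefSeq gene may share reads with it. TPM keeps no depth, so no counting interval is given, and the precision rests on the replicates.

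From the table of 60642 genes, of which 26439 were at 0 throughout, the 16636 with a TPM of 1 or more in 2 or more libraries were tested as log2(TPM + 1) in limma 3.58.1 (R 4.3.3), with a trended prior, 8 group means over all 16 libraries, 19 comparisons and Benjamini-Hochberg adjustment within each. The study states no differential test. A gene was called at an adjusted p below 0.05, and ± is the SE. The script was tested on simulated data. Groups and replicate numbers came from the sample labels.

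Replicate differences correlated between all 28 pairs of groups (r from 0.204 to 0.635, all above 0.1), so the numbers pair the cultures, and the fit with the replicate block is given beside the other. No 2 libraries held the same values. Alternatives were a pseudocount of 0.1, no filter, median-ratio scaling, mitochondrial genes left out, only the groups compared in the fit, no trend, and each library left out. Leaving out ENZ.DHT replicate 1 and APA.DHT replicate 1 together was chosen after seeing the data. The members, pathway lists and marker lists were chosen with earlier results of these data known. Members called in 1 or more of the 4 comparisons, the highest member of each family and the called genes at both ends of each pathway list are named. A few listed genes are not reported here. Coordinates and sequences are from RefSeq GRCh38.p14, where 40 members matched by symbol and 3 by synonym.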

Additional observations from a re-analysis of the deposited data

How the results depend on the processing

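The 10 members called in 1 or more of the 4 comparisons of DHT with VEH and of each antagonist with DHT kept their direction in those 4 under each alternative run; the direction of other members and comparisons was not followed. The counts of members called moved as follows. Here and above, the share of all genes called is given only for the main fit and the fit with the block. Under the other settings a moved count cannot be told from a general change in calls. With a pseudocount of 0.1, BIC.DHT against DHT had 1. With no filter it had 1 and APA.DHT against DHT had 5. With median-ratio scaling, ENZ.DHT against DHT had 10, BIC.DHT against DHT had 3 (2 higher and 1 lower), and the interactions of bicalutamide, enzalutamide and apalutamide had 1, 2 and 1. With a fit limited to the libraries compared, DHT against VEH had 1 and the bicalutamide, enzalutamide and apalutamide comparisons with DHT had 0 each by limma, where 8, 11 and 10 members had an unadjusted p below 0.05; these fits have few samples. With the replicate block, which pairs the cultures, the 4 comparisons had 16, 8, 16 and 14 and the 3 interactions 5, 7 and 6; it changed no other count. With each library left out in turn, DHT against VEH had 2 to 5, BIC.DHT against DHT 0 to 1, ENZ.DHT against DHT 2 to 7, APA.DHT against DHT 2 to 6, and the interaction of enzalutamide 0 to 1. The 0 for bicalutamide arose without either BIC.DHT library or without DHT replicate 1. Without ENZ.DHT replicate 1 and APA.DHT replicate 1 together, the 4 comparisons had 11, 2, 3 and 4. When a library is left out, the one that remains is assumed to vary like the other groups. The cause of these shifts was not tested. Of the 24 calls of named members, 6 were kept with each library left out, those of ST6GALNAC1 and ST3GAL5 in all but the bicalutamide comparison, and 17 under each of the 6 other settings apart from the groups-only fit, which kept 1. TPM does not record depth, so changes in members near 1 TPM are the least certain.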
